A study of Arabidopsis thaliana with 12 samples.

Results

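Across 12 Arabidopsis thaliana arrays, 46 genes had lower signals in brm-1 clf-29, clf-29 and brm-1 seedlings than in wild-type Col seedlings. They were chosen from the 13513 probe sets of the Affymetrix ATH1 array that name a single gene. The mean of each of the 3 mutants had to lie at least 0.585 below the Col mean on the log2 scale, which is a 1.5-fold difference. The Col mean had to be at least 7.5, and every Col array had to lie above all 9 mutant arrays. Over the whole array 112 probe sets met these values. Of them 66 were not counted, 64 without a gene name in the annotation used and 2 naming several genes. The 46 genes are thus the named part of the probe sets that met the values. AT3G05730, AT3G16670, AT2G43590 and AT1G54740 were left out by name, and 0 of these 4 met the values. The differences from Col therefore chose the genes, and they are given as a description with no test.

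All plants were in the Col background and were harvested as whole seedlings after 14 days. The brm-1 clf-29 plants carried both T-DNA insertions, the clf-29 plants carried an insertion in the H3K27 methyltransferase gene CLF, and the brm-1 plants carried a null insertion allele of the SWI2/SNF2 chromatin remodeler gene BRM. Col plants carried neither insertion. Each genotype had 3 biological replicates, and each mutation is represented by a single allele. Whole seedlings contain many cell types, so fewer cells that express a gene and less RNA per cell cannot be told apart in these values.

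CLF is the catalytic subunit of a Polycomb complex that places H3K27me3 on chromatin, a mark of repressed genes, and BRM moves nucleosomes with the energy of ATP and is known to counteract Polycomb at many genes. Plant immunity relies on receptor kinases at the cell surface, on intracellular receptors that often hold a TIR domain, and on signalling through salicylic acid and jasmonate. Its outputs include antimicrobial peptides, chitinases, lipid transfer proteins and the small molecules of systemic acquired resistance. The 46 genes are described by the type of protein they encode, and these types were assigned once the genes were known. The shares of these types over all genes were not counted, so the number of genes in a type does not measure defence content.

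The arrays had medians between 7.54 and 7.66 log2 units after scaling by the authors. The first principal component of the brighter genes, with a mean signal at or above the median of all genes, held 30.9% of the variance. It set the 4 arrays of replicate 3 (12.16 to 22.25) apart from the other 8 arrays (-21.44 to 5.76), across all 4 genotypes. Probe sets for the 3′ and 5′ ends of the GAPDH transcript differed by 0.07 to 0.66 log2 units and those for actin by 3.62 to 4.38, with the genotypes overlapping. Signals of the 27 bacterial control probe sets had a 95th percentile of 4.71, which was taken as the background level. The BRM and CLF probe sets are not named in the annotation used here, so the signals of both mutated genes could not be set beside the labelled genotypes.

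The 46 genes fell by a median of 1.37 log2 units in brm-1 clf-29, 1.25 in clf-29 and 1.06 in brm-1, relative to Col. These medians correspond to 2.58-fold, 2.38-fold and 2.08-fold lower signals. Over all single-gene probe sets the same medians were -0.02, -0.01 and -0.04. A difference of 2-fold or more was found for 36 of the 46 genes in brm-1 clf-29, for 28 in clf-29 and for 24 in brm-1, and for 19 genes it was found in all 3 mutants. Over all genes these shares were 7.49%, 4.78%, 6.15% and 1.11%, from the same contrasts that chose the 46. In Col the genes were mostly bright, with means between 7.56 and 14.27 and a median of 9.27.

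**Figure D1:**
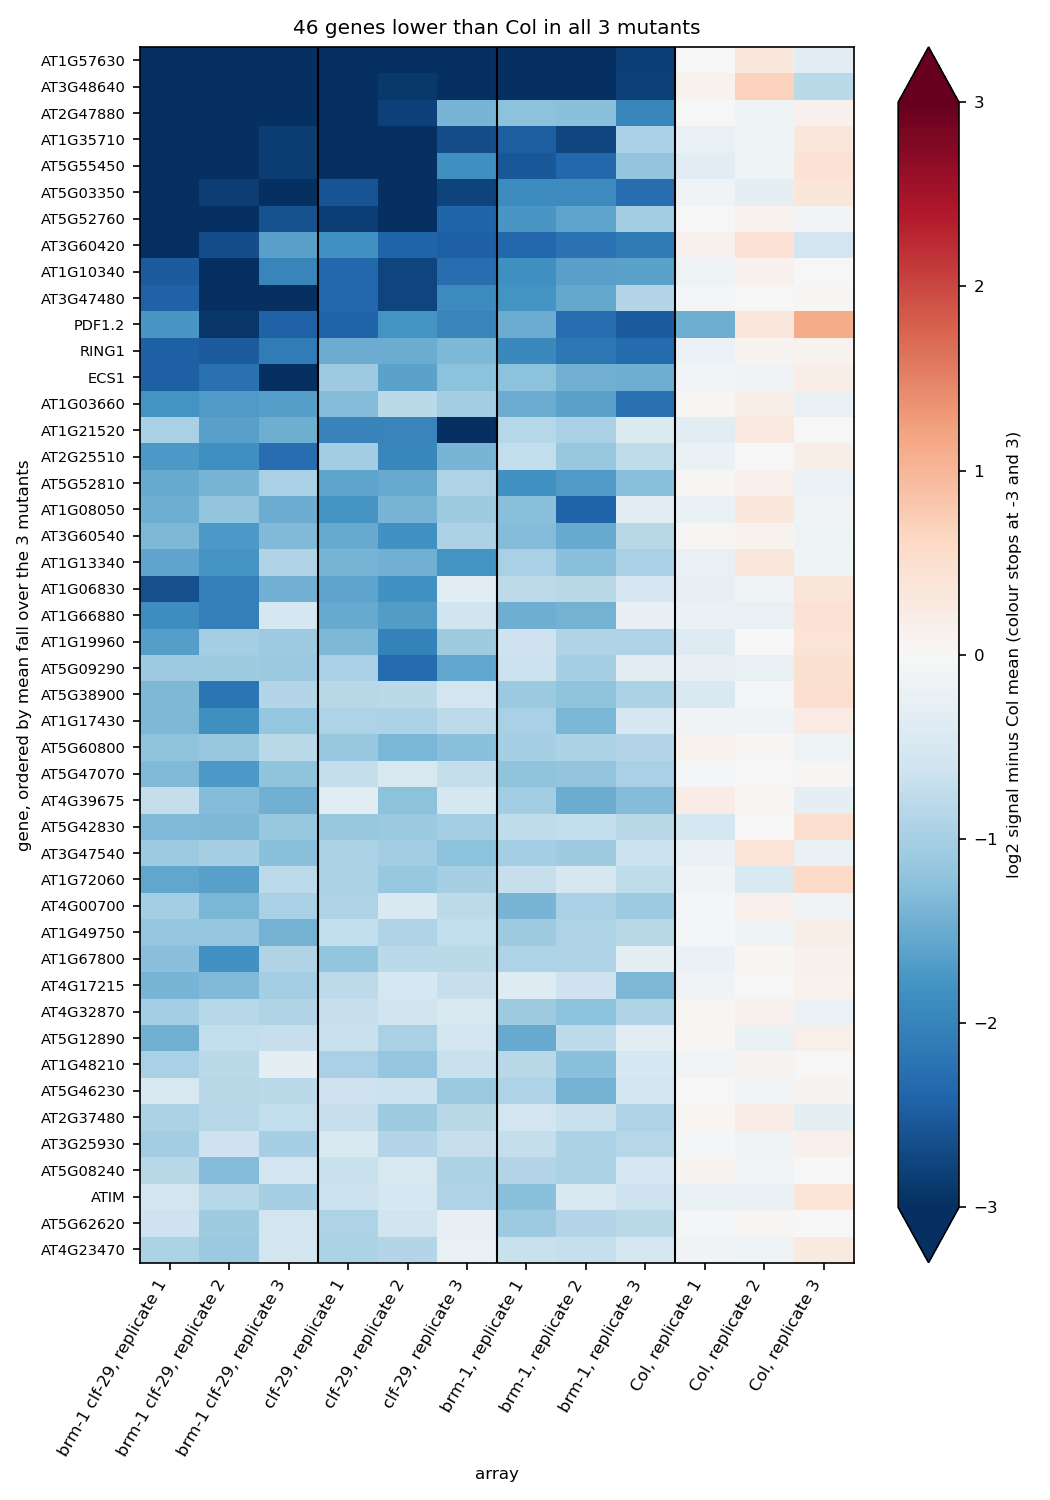
Log2 MAS5 signal of each of the 46 genes (rows, largest mean fall at the top) in each of the 12 arrays (columns, by genotype and replicate), minus the gene's Col mean. Blue is below the Col mean and red above it, with the colour stopping at -3 and 3. The 9 mutant columns are blue throughout, and the brm-1 clf-29 columns are darkest for most of the upper rows.

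Array by array, the median of the 46 genes relative to their Col means was -1.42, -1.67 and -1.18 in brm-1 clf-29, -1.15, -1.39 and -1.04 in clf-29, -1.11, -1.24 and -0.89 in brm-1, and -0.09, 0.02 and 0.10 in Col. The mutant arrays thus lay far below the Col arrays, and within each mutant the replicate 2 array was lowest and the replicate 3 array highest. Replicate 3 was the highest array of its genotype for 30 of the 46 genes in brm-1 clf-29, 21 in clf-29, 30 in brm-1 and 26 in Col. The genes also varied more between replicates than other bright genes did. Their median SD within a genotype was 0.34 in brm-1 clf-29, 0.27 in clf-29, 0.24 in brm-1 and 0.21 in Col, against 0.18, 0.18, 0.16 and 0.13 over all single-gene probe sets with a Col mean of at least 7.5.

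**Figure D2:**
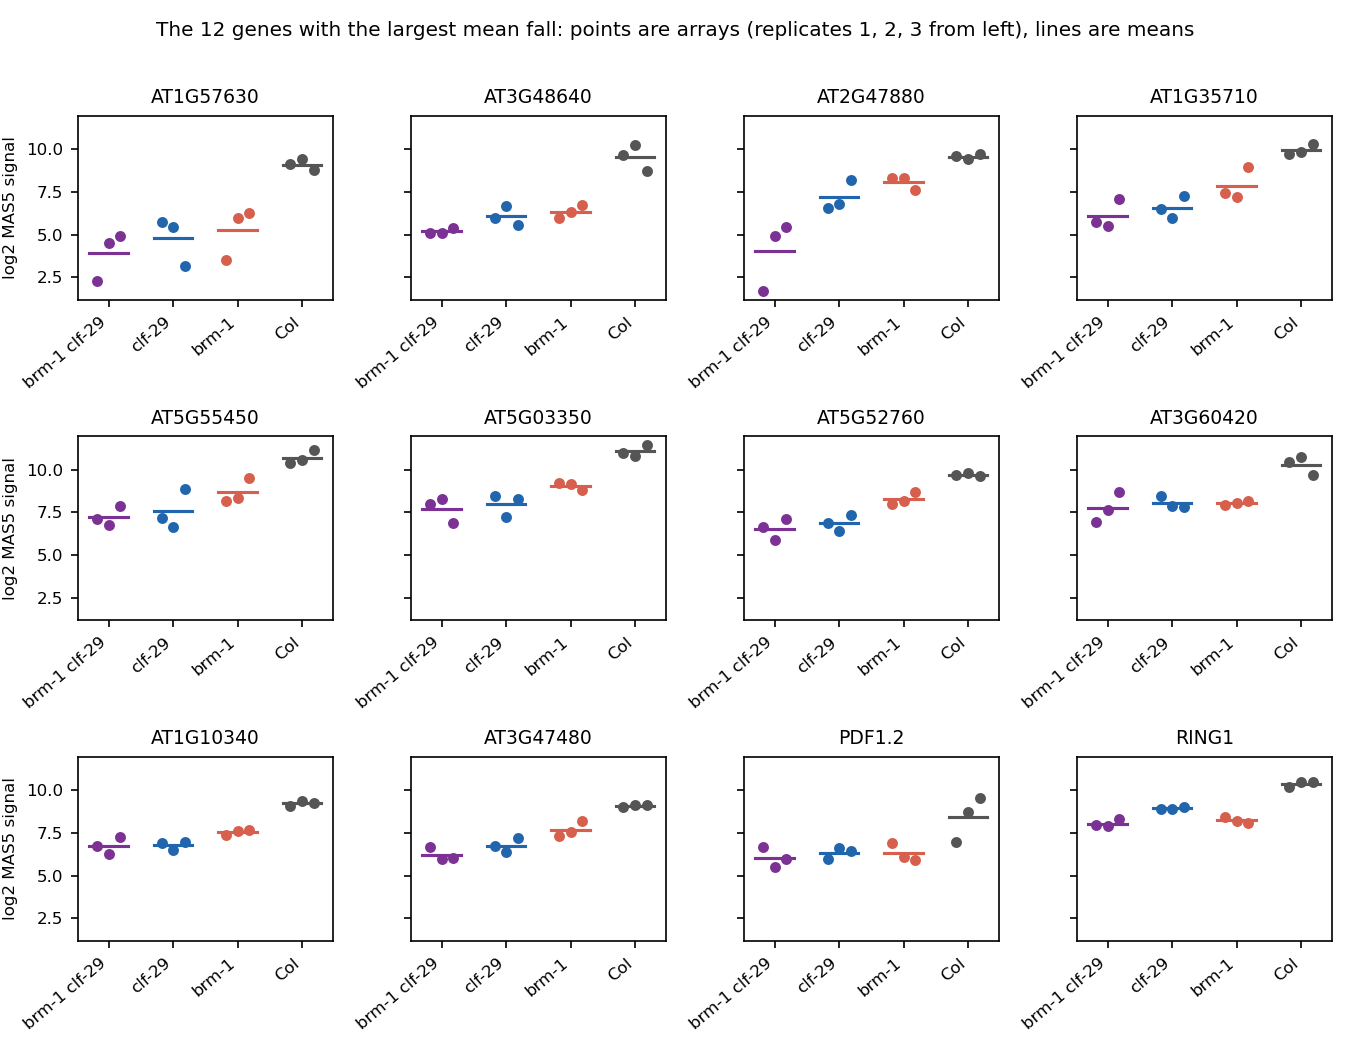
Log2 MAS5 signal (vertical axis) of the 12 genes with the largest fall averaged over the 3 mutants, by genotype. Points are single arrays with replicates 1, 2 and 3 from left to right, and lines are means of 3. The Col points lie above all mutant points in each panel, with the smallest distance, 0.03, for PDF1.2.

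Among 7 genes for immune receptor domains, kinases and related proteins, the median change from Col was -1.48 in brm-1 clf-29, -1.26 in clf-29 and -1.12 in brm-1. This type rests on protein domains, and a role in immunity is not given for each gene. AT1G57630, a TIR-domain protein of the kind used in intracellular immune receptors, read 2.29, 4.54 and 4.95 in brm-1 clf-29, 5.74, 5.46 and 3.19 in clf-29, 3.53, 5.99 and 6.28 in brm-1, and 9.11, 9.42 and 8.76 in Col. It had the largest mean fall of the 46 genes. The mutant arrays overlapped one another over a wide range. The brm-1 clf-29 mean of 3.93 lay under the background level, although the replicate 3 array, at 4.95, lay above it. With the background level in place of this mean, the AT1G57630 signal was 20.9-fold lower than in Col. In clf-29 it was 19.7-fold lower and in brm-1 14.2-fold lower, by the measured means. The clf-29 replicate 3 array, at 3.19, and the brm-1 replicate 1 array, at 3.53, were also under the background level. The folds of the single mutants are thus not on the same footing as that of brm-1 clf-29.

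AT1G35710, a leucine-rich repeat receptor kinase of the cell surface type, read 5.76, 5.49 and 7.10 in brm-1 clf-29, 6.49, 5.96 and 7.28 in clf-29, 7.46, 7.19 and 8.97 in brm-1, and 9.72, 9.82 and 10.29 in Col. Within each replicate number the order was the same, with brm-1 clf-29 lowest, then clf-29, then brm-1, then Col. The falls were 14.2-fold, 10.3-fold and 4.20-fold in brm-1 clf-29, clf-29 and brm-1. AT1G10340, an ankyrin repeat protein, read 6.75, 6.27 and 7.27 in brm-1 clf-29, 6.89, 6.50 and 6.97 in clf-29, 7.40, 7.62 and 7.65 in brm-1, and 9.10, 9.37 and 9.27 in Col. Here brm-1 clf-29 and clf-29 overlapped and both lay below every brm-1 array.

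AT5G47070, a protein kinase, showed the reverse order of the single mutants. It read 7.82, 7.42 and 7.94 in brm-1 clf-29, 8.44, 8.67 and 8.44 in clf-29, 7.95, 7.97 and 8.19 in brm-1, and 9.11, 9.16 and 9.19 in Col. Each genotype held its own range, with brm-1 clf-29 lowest and clf-29 the highest mutant. AT1G49750, a leucine-rich repeat protein, read 9.80, 9.80 and 9.54 in brm-1 clf-29, 10.22, 10.03 and 10.21 in clf-29, 9.90, 10.02 and 10.12 in brm-1, and 10.91, 10.82 and 11.14 in Col. All brm-1 clf-29 arrays were below all arrays of the single mutants, which overlapped each other.

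The protein kinase AT1G66880 met the rule by a narrow margin. It read 7.69, 7.51 and 9.03 in brm-1 clf-29, 8.05, 7.88 and 8.97 in clf-29, 8.09, 8.14 and 9.30 in brm-1, and 9.35, 9.33 and 9.99 in Col. Its replicate 3 arrays were high in all 4 genotypes, and the brm-1 replicate 3 array came within 0.03 of the lowest Col array. The remaining kinase, AT1G48210, fell by 0.69, 0.93 and 0.88 in brm-1 clf-29, clf-29 and brm-1, and brm-1 clf-29 was its highest mutant.

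The 7 genes for secreted, antimicrobial and systemic defence proteins had median changes of -2.37 in brm-1 clf-29, -1.34 in clf-29 and -1.59 in brm-1. These medians come from different genes and do not measure a difference within a gene. The first is that of PDF1.2, which changed by -2.06 in clf-29 and -2.09 in brm-1. The other medians are those of AT5G52810, which changed by -1.29 in brm-1 clf-29. ECS1 (AT1G31580), a cell wall protein gene, was the brightest of the 46 genes. It read 11.82, 12.03 and 11.06 in brm-1 clf-29, 13.18, 12.67 and 13.03 in clf-29, 13.05, 12.83 and 12.81 in brm-1, and 14.19, 14.16 and 14.46 in Col. The single mutants overlapped at about the same level, brm-1 clf-29 lay below both in every array, and the falls from Col were 6.20-fold, 2.48-fold and 2.59-fold in brm-1 clf-29, clf-29 and brm-1.

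AT5G55450, a lipid transfer protein, read 7.09, 6.74 and 7.86 in brm-1 clf-29, 7.20, 6.64 and 8.86 in clf-29, 8.15, 8.34 and 9.52 in brm-1, and 10.38, 10.58 and 11.14 in Col. The legume-type lectin AT5G03350, which is induced by salicylic acid, read 7.97, 8.27 and 6.86 in brm-1 clf-29, 8.49, 7.23 and 8.30 in clf-29, 9.20, 9.18 and 8.80 in brm-1, and 10.98, 10.82 and 11.46 in Col. For both genes brm-1 clf-29 and clf-29 overlapped, and brm-1 was the highest mutant on average. In brm-1 clf-29 they were 11.1-fold and 10.5-fold lower than in Col, and in brm-1 they were 4.08-fold and 4.07-fold lower.

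PDF1.2 (AT5G44420) encodes a plant defensin, an antimicrobial peptide induced by jasmonate and ethylene. It read 6.65, 5.49 and 5.97 in brm-1 clf-29, 6.00, 6.62 and 6.42 in clf-29, 6.92, 6.12 and 5.92 in brm-1, and 6.95, 8.74 and 9.53 in Col. The mutant arrays overlapped, while the Col arrays spanned 2.58 log2 units, the widest Col range of the 46 genes. The Col replicate 1 array lay within 0.03 of the highest mutant array, so the size of this fall depends on the other Col arrays.

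AT5G52810 encodes an enzyme for the synthesis of pipecolic acid, an amino acid derivative needed for systemic acquired resistance. It read 7.64, 7.77 and 8.17 in brm-1 clf-29, 7.56, 7.65 and 8.23 in clf-29, 7.34, 7.46 and 7.90 in brm-1, and 9.19, 9.30 and 8.97 in Col. The 3 mutants overlapped, and brm-1 had the lowest mean. The chitinase family gene AT3G47540 and the protease inhibitor gene AT1G72060 had smaller falls, between 0.91 and 1.11 and between 0.65 and 1.33 log2 units over the 3 mutants.

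RING1 (AT5G10380), a ubiquitin ligase of the RING type, had little spread between replicates. It read 7.94, 7.90 and 8.29 in brm-1 clf-29, 8.89, 8.90 and 9.05 in clf-29, 8.45, 8.21 and 8.07 in brm-1, and 10.20, 10.47 and 10.49 in Col. The clf-29 arrays lay above all brm-1 and brm-1 clf-29 arrays, which overlapped. The other genes for RING proteins, AT1G08050 and the copine-type AT1G67800, fell by 1.38 and 1.32 in brm-1 clf-29, 1.41 and 0.93 in clf-29, and 1.32 and 0.71 in brm-1.

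In all 3 genes for redox proteins brm-1 clf-29 was the lowest mutant. AT2G47880, a glutaredoxin, read 1.68, 4.93 and 5.46 in brm-1 clf-29, 6.59, 6.77 and 8.18 in clf-29, 8.34, 8.32 and 7.63 in brm-1, and 9.58, 9.44 and 9.71 in Col. The brm-1 clf-29 arrays lay below all others. Their mean, 4.02, was under the background level because of the replicate 1 array, while the replicate 2 and 3 arrays lay above it. With that level in place of the mean, the signal was 29.2-fold lower than in Col. It was 5.27-fold lower in clf-29 and 2.79-fold lower in brm-1.

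AT1G06830, another glutaredoxin, read 5.83, 6.42 and 7.03 in brm-1 clf-29, 6.89, 6.65 and 8.15 in clf-29, 7.69, 7.63 and 7.98 in brm-1, and 8.23, 8.36 and 8.83 in Col. Its brm-1 clf-29 arrays lay below every brm-1 array and overlapped clf-29. For AT2G47880 and AT1G06830 the change in brm-1 clf-29 was larger than the sum of the changes in the single mutants, and for the other 44 genes it was smaller. The rule used each of these changes and they share the Col arrays, so this count is a description with no test. The thioredoxin superfamily gene AT5G38900 fell by 1.47 in brm-1 clf-29, 0.73 in clf-29 and 1.09 in brm-1.

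Among 4 genes for metal-binding and calcium-binding proteins, AT5G52760 encodes a protein with a heavy-metal-associated domain. It read 6.64, 5.88 and 7.11 in brm-1 clf-29, 6.89, 6.41 and 7.33 in clf-29, 7.97, 8.15 and 8.67 in brm-1, and 9.71, 9.83 and 9.63 in Col. The brm-1 clf-29 and clf-29 arrays overlapped and lay below all brm-1 arrays. AT3G47480, an EF-hand calcium-binding protein, read 6.67, 5.96 and 6.06 in brm-1 clf-29, 6.74, 6.36 and 7.20 in clf-29, 7.31, 7.58 and 8.22 in brm-1, and 9.04, 9.13 and 9.15 in Col. It had the same order of means, and brm-1 was again the mutant nearest to Col. AT5G60800, which also holds a heavy-metal-associated domain, and the C2-domain gene AT4G00700 fell by 1.05 and 1.12 in brm-1 clf-29, 1.26 and 0.73 in clf-29, and 0.95 and 1.15 in brm-1.

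The 11 genes for other enzymes and transport proteins had median changes of -1.09 in brm-1 clf-29, -0.89 in clf-29 and -0.92 in brm-1. AT3G60420, of the phosphoglycerate mutase family, stood out with 6.92, 7.62 and 8.67 in brm-1 clf-29, 8.47, 7.89 and 7.84 in clf-29, 7.93, 8.07 and 8.16 in brm-1, and 10.43, 10.72 and 9.72 in Col. The 3 mutants overlapped, and each was 4.67-fold to 5.87-fold lower than Col. AT5G09290, of the inositol monophosphatase family, had the lowest Col mean of the 46 genes. It read 6.47, 6.50 and 6.45 in brm-1 clf-29, 6.58, 5.25 and 6.01 in clf-29, 6.93, 6.57 and 7.25 in brm-1, and 7.31, 7.35 and 8.03 in Col, with clf-29 the lowest mutant on average.

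The polyketide cyclase family gene AT4G32870 was among the genes lowest in brm-1. It read 8.52, 8.69 and 8.64 in brm-1 clf-29, 8.85, 8.95 and 9.06 in clf-29, 8.47, 8.31 and 8.64 in brm-1, and 9.60, 9.66 and 9.36 in Col, and every clf-29 array lay above every array of the other mutants. The others were AT3G60540 (a Sec61 beta subunit), AT1G13340 (a regulator of Vps4 activity), AT1G17430 (a hydrolase), AT5G42830 (an acyltransferase), AT5G12890 and AT5G62620 (glycosyltransferases), AT3G25930 (a hydrolase-like protein) and ATIM (AT5G52910, a homologue of TIMELESS). Their falls lay between 0.59 and 1.54 log2 units over the 3 mutants.

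For 11 genes no role is given here. AT3G48640 had the second largest mean fall of all 46 and read 5.12, 5.07 and 5.41 in brm-1 clf-29, 6.00, 6.65 and 5.56 in clf-29, 5.97, 6.31 and 6.74 in brm-1, and 9.65, 10.25 and 8.75 in Col. Its brm-1 clf-29 arrays lay below all other arrays, and its falls were 20.4-fold, 11.2-fold and 9.25-fold in brm-1 clf-29, clf-29 and brm-1. AT2G25510, the second brightest gene in Col, read 12.40, 12.29 and 11.85 in brm-1 clf-29, 13.08, 12.17 and 12.74 in clf-29, 13.38, 12.99 and 13.36 in brm-1, and 13.93, 14.13 and 14.33 in Col. Here brm-1 clf-29 overlapped clf-29 and lay below every brm-1 array.

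AT1G21520 was the clearest gene with brm-1 clf-29 between the single mutants. It read 8.58, 7.93 and 8.08 in brm-1 clf-29, 7.55, 7.57 and 6.44 in clf-29, 8.70, 8.57 and 9.11 in brm-1, and 9.24, 9.84 and 9.57 in Col. Every clf-29 array lay below every brm-1 clf-29 array, and the brm-1 clf-29 mean was 1.01 above that of clf-29. The test against clf-29 given below did not call this difference. AT5G46230 read 8.05, 7.71 and 7.72 in brm-1 clf-29, 7.91, 7.90 and 7.42 in clf-29, 7.61, 7.12 and 7.96 in brm-1, and 8.53, 8.45 and 8.62 in Col, and its 3 mutants overlapped. The remaining 7 genes, AT1G03660, AT1G19960, AT4G39675, AT2G37480, AT5G08240, AT4G17215 and AT4G23470, fell by 0.63 to 1.78 log2 units over the 3 mutants.

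The rule set sharp borders in values that had none. The smallest fall in any mutant was 0.59 for AT4G32870 and AT5G62620, just inside, and 0.58 and 0.57 for AT3G26470 and AT5G62340, just outside. The Col mean was 7.56 for AT5G09290 and 7.78 for ATIM, just inside, and 7.39 and 7.28 for AT5G36930 and AT5G45060, just outside. The lowest Col array and the highest mutant array were 0.03 apart for AT1G66880 and PDF1.2, equal for AT4G39830, and 0.01 the other way round for AT3G51330. Had such overlap been allowed, 78 single-gene probe sets would have met the remaining conditions.

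Whether brm-1 clf-29 was the lowest genotype was then examined. Its mean was the lowest of the 3 mutant means for 31 of the 46 genes (67.4%), while clf-29 was lowest for 8 and brm-1 for 7. Across all 13356 genes brm-1 clf-29 was lowest in 31.7%, and across 6126 genes with a Col mean of at least 7.5 in 29.7%. Genes that are lower in all 3 mutants by any amount form a closer comparison, and among 2008 such genes with the same Col minimum, the 46 not counted, brm-1 clf-29 was lowest in 45.8%. For 3 of the 46 genes brm-1 clf-29 was the highest mutant, against 18 for clf-29 and 25 for brm-1. These are counts over genes measured on the same arrays and carry no test.

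**Figure D3:**
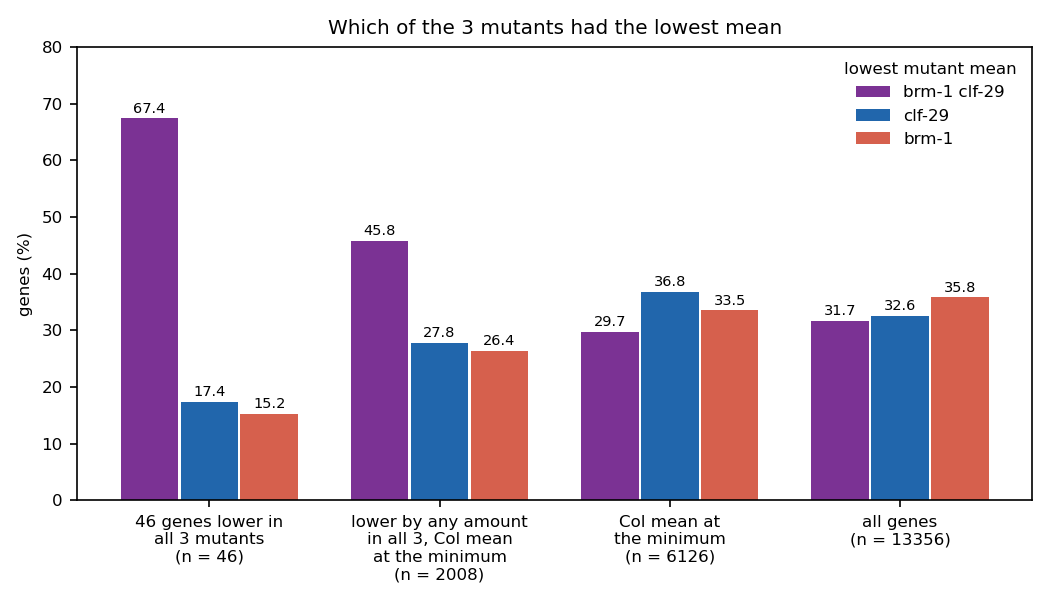
Percentage of genes (vertical axis) for which brm-1 clf-29, clf-29 or brm-1 had the lowest of the 3 mutant means, for the 46 genes, for genes lower by any amount in all 3 mutants, for genes with a Col mean of at least 7.5, and for all genes. brm-1 clf-29 was lowest for 67.4% of the 46 genes and for 45.8%, 29.7% and 31.7% in the other sets.

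Many of these differences were small. The brm-1 clf-29 mean was below the lower single mutant by at least 0.27, the median SD within a genotype, for 20 of the 46 genes, and above it by as much for 3, AT1G21520, AT5G09290 and AT5G52810. The median difference from the lower single mutant was -0.18. Every brm-1 clf-29 array lay below all 6 single-mutant arrays for 5 genes, AT3G48640, AT2G47880, ECS1, AT5G47070 and AT1G49750, which is 10.87% of the 46 against 1.71% of all genes and 2.59% of the genes lower by any amount in all 3 mutants. Within replicate numbers 1, 2 and 3 taken alone, brm-1 clf-29 was lowest for 32, 28 and 24 of the 46 genes, and with the replicate 3 arrays left out for 29.

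On the log2 scale the changes in the single mutants summed to a median of -2.23, against -1.37 measured in brm-1 clf-29. The rule required a fall in each single mutant, and the Col arrays enter the sum through both changes. A sum larger in size than the measured change is therefore partly built in by the choice, and additivity was not tested. For 9 genes the 3 mutant means lay within 0.25 of one another. In 18 genes brm-1 clf-29 had the lowest and brm-1 the highest of the mutant means, and in 13 genes brm-1 clf-29 had the lowest and clf-29 the highest. A set chosen by the mirrored values, with all 3 mutants higher than Col, held 43 genes, and brm-1 clf-29 was the highest mutant for 38 of them (88.4%). Their median changes were 1.22 in brm-1 clf-29, 0.86 in clf-29 and 0.95 in brm-1.

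The differences between the mutants were not among the contrasts that chose the genes and were tested with limma over all 13356 genes, with Benjamini-Hochberg adjustment. These tests cover 45 of the 46 genes, since AT2G37480 was represented by another probe set. Against brm-1, brm-1 clf-29 was lower for 37 of the 45 genes, beside 48.5% of all genes. The median difference was -0.34, against 0.01 over all genes. At an adjusted p under 0.05, 2 genes were lower and 0 higher, beside 0.0599% of all genes called lower and 0.157% called higher. At an unadjusted p under 0.05 there were 16 of 45, against 9.8% of all genes. AT5G52760 was lower by 1.72 ± 0.30 log2 units (difference -1.72, SE, n = 3 arrays each, adjusted p = 0.0439 with limma) and ECS1 by 1.26 ± 0.22 (difference -1.26, adjusted p = 0.0417 with limma). In both genes every brm-1 clf-29 array was below every brm-1 array.

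Against clf-29, brm-1 clf-29 was lower for 36 of the 45 genes, beside 51.4% of all genes. The median difference was -0.31, against -0.01 over all genes. The test called 3 genes lower and 0 higher, beside 0.981% and 0.487% of all genes, and 12 of 45 had an unadjusted p under 0.05, against 12.9% of all genes. RING1 differed by -0.90 ± 0.14 (adjusted p = 0.00783 with limma), ECS1 by -1.32 ± 0.22 (adjusted p = 0.0117) and AT5G47070 by -0.79 ± 0.14 (adjusted p = 0.0194). Their brm-1 clf-29 arrays were below all clf-29 arrays.

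The single mutants differed from each other in both directions. Over the 45 genes the median of clf-29 minus brm-1 was -0.09, with 25 genes below 0 and 20 above, beside 46.9% of all genes below 0. AT5G52760, at -1.39 ± 0.30 (adjusted p = 0.029 with limma), and AT1G21520, at -1.61 ± 0.29 (adjusted p = 0.0104), were lower in clf-29, and RING1, at 0.70 ± 0.14 (adjusted p = 0.0183), was higher in clf-29. Over all genes 1.06% were called lower and 1.76% higher.

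**Figure D4:**
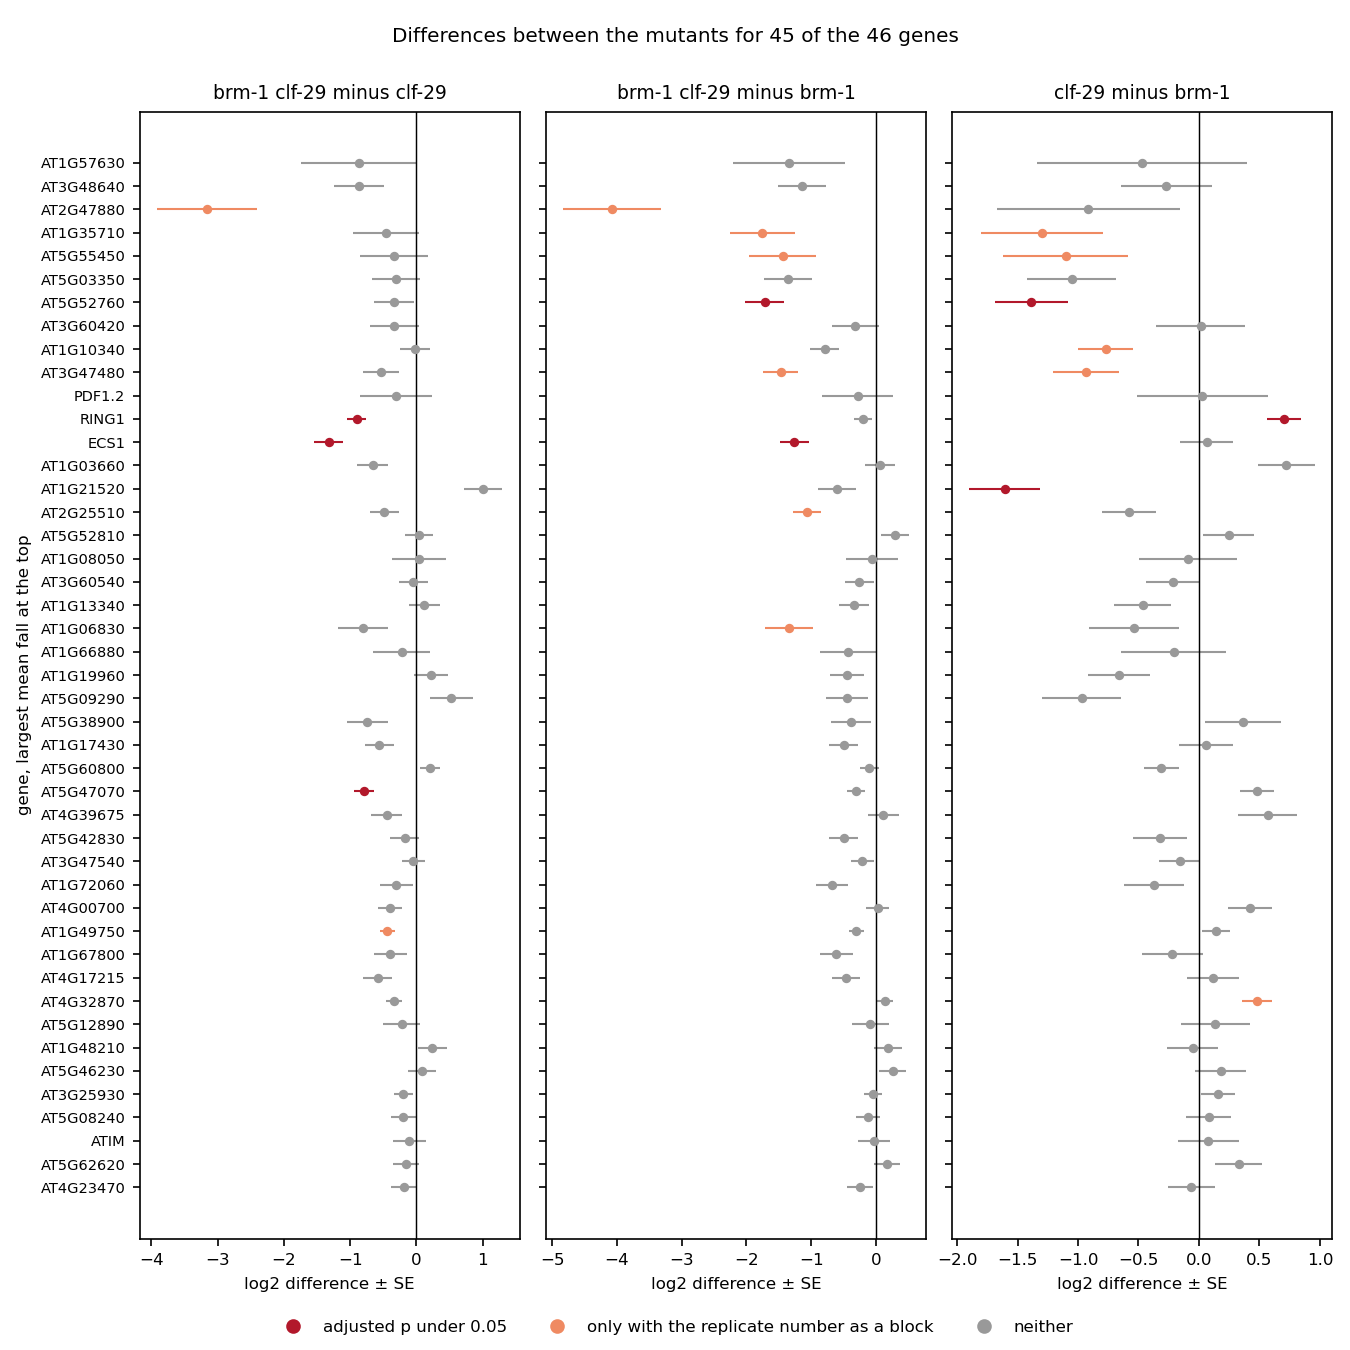
Log2 differences between mutants (horizontal axes, ± SE from the limma fit on 12 arrays) for 45 of the 46 genes, largest mean fall at the top. Dark red marks an adjusted p under 0.05, orange a call made only with the replicate number as a block, and grey neither. Most points of the first 2 panels lie left of 0, and the points of the third lie on both sides.

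With the replicate number as a block in the fit more genes were called. Against brm-1, brm-1 clf-29 was then lower for 8 of the 45 genes, beside 0.876% of all genes, and higher for 0, beside 0.779%. Besides AT5G52760 and ECS1 these were AT2G47880 (-4.07 ± 0.65, adjusted p = 0.0104 with limma), AT1G35710 (-1.76), AT5G55450 (-1.44), AT3G47480 (-1.47), AT2G25510 (-1.06) and AT1G06830 (-1.34), the largest of whose adjusted p was 0.0236. Against clf-29, 5 genes were lower and 0 higher, beside 2.43% and 1.64% of all genes, with AT2G47880 (-3.16 ± 0.65, adjusted p = 0.0173) and AT1G49750 (-0.44 ± 0.11, adjusted p = 0.0456) added. With the background level in place of the AT2G47880 mean in brm-1 clf-29, its signal was 5.54-fold lower than in clf-29 and 10.5-fold lower than in brm-1. Only its replicate 1 array was under that level, so these folds are not strict lower bounds.

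Between the single mutants the block gave 6 genes lower and 2 higher in clf-29, beside 3.1% and 3.64% of all genes. The additions were AT1G35710 (-1.30), AT5G55450 (-1.10), AT1G10340 (-0.77) and AT3G47480 (-0.94), lower in clf-29, and AT4G32870 (0.48), higher. Of the 8 calls without the block, 5 were lost when some single arrays were left out. Of 12 fits that each left out an array, AT5G52760 and ECS1 lost their call against brm-1 in 10 each, AT5G47070 lost its call against clf-29 in 3, and AT5G52760 and RING1 lost theirs between the single mutants in 6 and 4. The calls of RING1 and ECS1 against clf-29 and of AT1G21520 between the single mutants were lost in 0 of the 12. When the fit held the compared genotypes alone, 0 of the 45 genes were called in any of the 3 contrasts.

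Defence genes were counted through 6 lists of genes for salicylic acid signalling, pathogenesis-related and antimicrobial proteins, receptor kinases, intracellular receptors, camalexin metabolism, and jasmonate and ethylene response. Of the 142 listed genes 22 were measured, which here means named by a single-gene probe set. The others may be on the array among the 8794 probe sets without a gene name in the annotation used. Of the 22, 6 (27.3%) were among the 46, against 0.34% of all single-gene probe sets, a share that covers only a part of the lists. The 6 were AT1G57630, AT1G35710, AT5G03350, PDF1.2, RING1 and AT5G52810. Since 7 of the 22 had been named in earlier results of these arrays, 4 of them among the 46, the share is not independent evidence. Among the 15 listed genes not named before, 2 were among the 46, RING1 and AT5G52810. Of the 3 measured jasmonate and ethylene genes, only PDF1.2 was among the 46. PDF1.2b changed by -0.70 in brm-1 clf-29, -2.53 in clf-29 and -0.54 in brm-1, and THI2.1 by 0.66, 1.84 and -1.18. Both were uncalled against Col without the replicate block. With it PDF1.2b was called lower in clf-29 (adjusted p = 0.0357 with limma). THI2.1 lay under the background level in 3 genotypes.

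Outside the 46, 16 listed genes were measured. Of these, AT1G26380, AT4G33720 and WRKY53 had been named in earlier results of these arrays, so counts that hold them are not independent evidence. In brm-1 clf-29, 13 of the 16 were below Col, with a median of -0.69 against -0.02 over all genes. Called lower were 4 of them, beside 2.59% of all genes called lower, and 0 were called higher, beside 2.4%. These were AT1G72900 and AT1G66090, which encode TIR-domain proteins, at -0.82 ± 0.18 (adjusted p = 0.0211 with limma) and -0.94 ± 0.24 (adjusted p = 0.0447), AT1G26380, a berberine bridge enzyme-like protein of indole metabolism, at -4.66 ± 1.12 (adjusted p = 0.033), and AT4G33720, of the PR-1 family, at -4.77 ± 1.26 (adjusted p = 0.0498). The brm-1 clf-29 means of AT1G26380 and AT4G33720, 3.31 and 4.27, lay under the background level. Their arrays there varied widely, with 0.54, 2.56 and 6.82 for AT1G26380 and 6.19, 5.32 and 1.29 for AT4G33720. With the background level in place of these means, the signals were 9.54-fold and 20.1-fold lower than in Col, which are not strict lower bounds.

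In clf-29, 11 of the 16 were below Col, with a median of -0.32, and the chitinase gene CHI was called lower, at -1.48 ± 0.25 (adjusted p = 0.0142 with limma), beside 0.397% of all genes, while 0 were called higher, beside 0.547%. In brm-1, 13 of the 16 were below Col, with a median of -0.52, and AT1G72900 (-0.93 ± 0.18, adjusted p = 0.0209) and AT4G33720 (-5.52 ± 1.26, adjusted p = 0.0471) were called lower, beside 1.17% of all genes, and 0 higher, beside 0.696%. In brm-1 the AT4G33720 mean was under the background level too, with arrays at 2.24, 1.88 and 6.42. With that level in place of the mean, the signal was 20.1-fold lower than in Col. The 3 contrasts share the Col arrays. With the replicate block 7 of the 16 genes were called lower in brm-1 clf-29, beside 5.5% of all genes, 3 in clf-29, beside 1.66%, and 2 in brm-1, beside 2.62%. With the block 0 were called higher in any mutant, beside 4.95%, 1.82% and 2.16% of all genes in brm-1 clf-29, clf-29 and brm-1. A fit without the trend in the variance called 0 of the 16 in each mutant. WRKY53, a transcription factor of defence and senescence, averaged 9.08 ± 0.37 in brm-1 clf-29, 8.63 ± 0.44 in clf-29, 9.25 ± 0.63 in brm-1 and 8.36 ± 1.32 in Col (SD, n = 3 each), above Col on average in each mutant and called in none (adjusted p between 0.527 and 0.905 with limma).

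**Figure D5:**
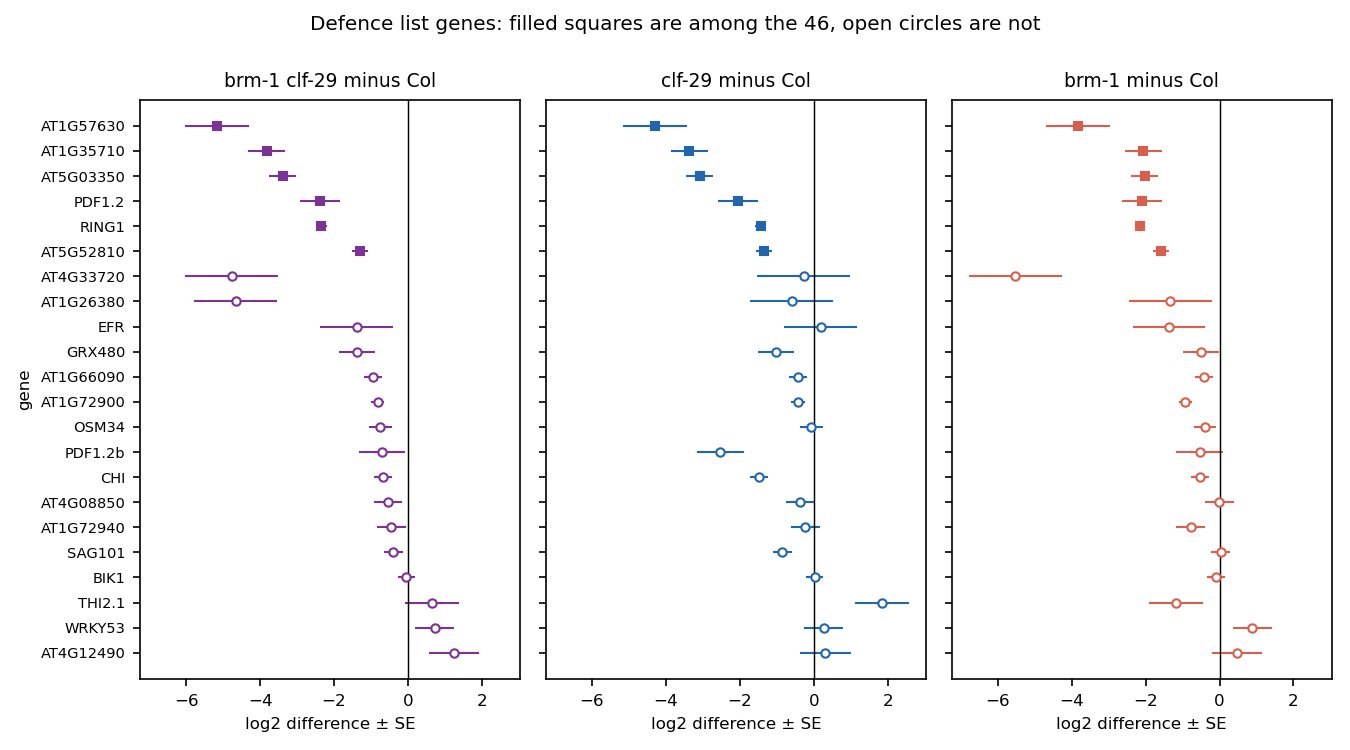
Log2 difference from Col (horizontal axes, ± SE from the limma fit on 12 arrays) of the 22 measured defence list genes in brm-1 clf-29, clf-29 and brm-1. Filled squares are the 6 genes among the 46, which were chosen for these differences, and open circles are the other 16, of which 13, 11 and 13 lie left of 0.

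Markers of seedling tissues were set beside these values. The lists held 16 leaf, 14 root, 10 meristem and flower, 10 clock and 9 senescence genes. Of these only 2, 2, 2, 1 and 1 were measured, so each list is represented by few genes. The leaf genes RCA and LHCB4.1, for Rubisco activase and a light-harvesting protein, averaged 14.59 and 14.44 in brm-1 clf-29, 14.63 and 14.39 in clf-29, 14.54 and 14.52 in brm-1, and 14.25 and 14.22 in Col. The root hair genes EXPA7 and EXPA18 averaged 7.83 and 8.83 in brm-1 clf-29, 8.00 and 8.70 in clf-29, 7.73 and 9.16 in brm-1, and 7.88 and 8.70 in Col. RCA, LHCB4.1, EXPA7 and EXPA18 were called against Col in none of the mutants, and their largest difference was 0.45 log2 units, for EXPA18 in brm-1. The clock gene GI averaged 9.63, 9.72 and 9.59 in brm-1 clf-29, clf-29 and brm-1 and 9.81 in Col. UFO, a floral meristem gene, was called higher in clf-29, where it averaged 5.22, against 1.52 in Col, which is under the background level and gives a signal at least 1.43-fold higher (adjusted p = 0.043 with limma). In brm-1 clf-29 it averaged 4.15, under the background level as in Col, and it was called there only with the replicate block (adjusted p = 0.0322 with limma, against 0.0708 without it). CLV3, a stem cell gene, was under the background level in all 4 genotypes. The senescence gene WRKY6 averaged 7.94, 8.61 and 8.40 in brm-1 clf-29, clf-29 and brm-1 and 8.68 in Col, and was called lower in brm-1 clf-29 only with the replicate block (adjusted p = 0.0244 with limma, against 0.288 without it). The part of tissue composition in the falls was not tested.

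The genes were also set against H3K27me3, a property that the choice did not use. Among the genes listed as gaining H3K27me3 in brm-1, 99 were measured, 0.74% of all genes, and 0 of the 46 were on that list. The part of the list that loses the gain when CLF is also absent held 50 measured genes, and the list of losses held 6, again with 0 of the 46. With shares this low over all genes, an absence among 46 genes is near the background.

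The genes lay on all 5 chromosomes, with 15 on chromosome 1, 3 on chromosome 2, 6 on chromosome 3, 5 on chromosome 4 and 16 on chromosome 5, and AT1G03660 was not in the table used. The shares of chromosomes 1 to 5 were 32.6%, 6.5%, 13.0%, 10.9% and 34.8%, against 25.5%, 16.3%, 20.3%, 14.5% and 22.3% of single-gene probe sets. No 2 of the genes were direct neighbours. AT5G52760 and AT5G52810 were 6 genes apart and AT3G47480 and AT3G47540 were 7 genes apart, and no other pair lay within 10 genes.

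Of genes directly next to the 46, 37 were measured, and their median changes were -0.17 in brm-1 clf-29, -0.13 in clf-29 and -0.08 in brm-1. For 3 of the 37 (8.1%) all 3 mutants were lower by the threshold of the rule, against 3.0% of all genes, and 1 of the 3, AT3G48650, also had a Col mean of at least 7.5. AT3G48650 lies next to AT3G48640 and read 6.09, 6.32 and 7.45 in brm-1 clf-29, 5.73, 6.32 and 6.90 in clf-29, 6.30, 6.33 and 8.73 in brm-1, and 8.05, 8.20 and 8.76 in Col. It was left outside by the brm-1 replicate 3 array, which lay among the Col arrays. The neighbouring values were looked up after those of the 46 were known.

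None of the 46 probe sets carries the suffix for cross-hybridizing probes. A second single-gene probe set exists for 2 of the genes. For AT2G37480 the brighter probe set changed by -0.42 in brm-1 clf-29, -0.44 in clf-29 and -0.30 in brm-1, smaller than at the chosen probe set, which changed by -0.85, -0.86 and -0.72. For AT3G60420 the other probe set averaged 2.28, 1.94 and 2.01 in brm-1 clf-29, clf-29 and brm-1 and 1.99 in Col, under the background level throughout.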

How the data were processed

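RNA of 12 seedling samples, 3 biological replicates of each of 4 genotypes named in the sample titles, was hybridised to Affymetrix ATH1 arrays. The deposited table holds a log2 signal for every probe set on every array. MAS5 and affy are the tools named in the submitters' processing notes, their versions being not given in the sources used here. Every column's antilog had a 2% trimmed mean of 500.0, so arrays were scaled to a common mean. The main fits used these values with no further normalization. No detection calls or scanner files were used here, and precision is limited by how many arrays there are.

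Among 22810 probe sets, 13513 name 1 gene, 503 several and 8794 none, and only the first were used. Genes are called measured where such a probe set names them. RefSeq gene names (TAIR10.1) matched 13436 of them and 45 of the 46 members. AT1G03660 kept its deposited name. That table pairs locus codes with names and not with functions, so roles were given as general knowledge, and protein types were assigned once the members were known. The build behind the probe annotation is not given in the sources used here, so no coordinates are printed. The annotation words of the gene names were uninformative, with a defence word in 0 of 46 members and in 0.19% of all.

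Contrasts between genotypes were fitted with limma 3.58.1 in R 4.3.3, with 1 mean per genotype over the 12 arrays, eBayes with trend, two-sided tests and Benjamini-Hochberg adjustment over 13356 genes, each with its brightest probe set, and genes were called at an adjusted p under 0.05. The program was tested on simulated data. Means under 4.71, the 95th percentile of 27 bacterial control probe sets, were treated as background. Folds against them were given with that level in place of the dimmer mean. They are lower bounds only where every array of the dimmer genotype lay under it. These folds carry no error. Python 3.11.15 was used for counts and matplotlib 3.10.9 for plots.

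Arrays with the same replicate number deviated together from their genotype means. Across genes with a mean signal at or above the median of all genes, correlations were 0.196 to 0.708 in all 18 pairs of arrays. The number was therefore used as a block, and blocked results are given where a call changed. Arrays numbered 1 and 2 of different genotypes correlated as well (0.162 to 0.488), so only replicate 3 stood apart (-0.6 to -0.27 with the others), and pairing within numbers 1 and 2 was not borne out. The labels do not say what the number stands for. Fits with replicate 3 as a term or left out were run too.

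Named genes were the 12 with the largest mean fall, those called between mutants (up to 8 in each direction and contrast), the 4 with the most negative and the 4 with the most positive difference of brm-1 clf-29 from the lower single mutant, those on a defence list, and those nearest the thresholds. The members, the lists and these tests were chosen with earlier results of these data known. H3K27me3 lists were read from the text of the study's supplement. Alternatives were quantile normalization, centring, an offset of 16 before the logarithm, filters, other variance models, other sets of arrays and each array left out in turn.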

Additional observations from a re-analysis of the deposited data

Results flagged for a closer look

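AT1G21520 was picked out because loss of BRM went with opposite shifts in 2 backgrounds. Every brm-1 array (8.70, 8.57 and 9.11) lay below every Col array (9.24, 9.84 and 9.57), while every brm-1 clf-29 array (8.58, 7.93 and 8.08) lay above every clf-29 array (7.55, 7.57 and 6.44), by 1.01 log2 units on average. The first of these shifts was required by the rule that chose the gene. The second was not called by limma, which found 0 of the 45 tested genes higher in brm-1 clf-29 than in clf-29. With the replicate block the count was also 0. The clf-29 mean is lowered by its replicate 3 array, at 6.44. The difference between the 2 shifts was not tested.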

How the results depend on the processing

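The 46 genes numbered 39 after quantile normalization, 38 after centring of each array and 44 with the offset, of which 39, 38 and 43 were among the 46. They numbered 92 in replicates 1 and 2 alone (36 shared), 19 at a 2-fold threshold and 103 without the Col minimum. With single arrays left out they numbered 45 to 82, with 82 without Col replicate 3 and 70 without brm-1 replicate 3. brm-1 clf-29 was lowest for 27 to 33 of the 46 genes with single arrays left out, for 28 to 31 under other normalizations, and for 20 when the median SD was required. The comparisons within a replicate number were added after seeing the data.

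Among the 45 tested genes, the counts called in brm-1 clf-29 minus brm-1, brm-1 clf-29 minus clf-29 and clf-29 minus brm-1 were 2, 3 and 3. They were 8, 5 and 8 with the replicate block, 8, 5 and 9 with replicate 3 as a term, 10, 7 and 10 in replicates 1 and 2 alone, 0, 1 and 1 without the trend, and 0, 0 and 0 with only the compared genotypes fitted. With single arrays left out they were 0 to 4, 2 to 4 and 1 to 4. In brm-1 clf-29 minus brm-1 the count was 0 without any of the Col or brm-1 arrays or without clf-29 replicate 1 or 2, 1 without brm-1 clf-29 replicate 1 or 2, and 4 without clf-29 replicate 3. In clf-29 minus brm-1 it was 1 without brm-1 replicate 2 or clf-29 replicate 2. Over the 8 calls of single genes, 14 of 88 other settings and 33 of 96 fits with an array left out lost the call, and the sign changed in 0.

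Over all genes, calls in these 3 contrasts and then in brm-1 clf-29, clf-29 and brm-1 minus Col were 29, 196, 376, 667, 126 and 249. They were 221, 543, 900, 1395, 465 and 638 with the replicate block, 253, 605, 1003, 1553, 586 and 730 with replicate 3 as a term, 359, 578, 910, 1529, 735 and 671 in replicates 1 and 2, and 11, 82, 215, 356, 42 and 90 without the trend. With only the compared genotypes the first 3 were 3, 61 and 182, and clf-29 minus Col gave 81. With single arrays left out the ranges were 8 to 41, 63 to 219, 185 to 420, 299 to 795, 44 to 173 and 86 to 298. The cause of these differences was not tested.

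Of the 16 defence list genes outside the 46, 4, 1 and 2 were called in brm-1 clf-29, clf-29 and brm-1. The counts were 7, 3 and 2 with the replicate block, 7, 3 and 3 with replicate 3 as a term, and 0, 0 and 0 without the trend. In brm-1 clf-29 they were 8 in replicates 1 and 2 and 2 after quantile normalization, without dim genes, with robust eBayes or with only the compared genotypes. In clf-29 they were 3 in replicates 1 and 2 and 0 with only the compared genotypes, and in brm-1 1 after quantile normalization, without dim genes or with robust eBayes. With single arrays left out they were 0 to 4, 0 to 2 and 0 to 2. The planned comparison of promoter motifs was not run.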
